A study of Rattus norvegicus with 30 samples.

Results

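Cells that lose water shrink, and they regain volume by loading sodium, potassium and chloride, while swollen cells release potassium, chloride and organic osmolytes. Slc12a2 encodes NKCC1, the cotransporter that loads sodium, potassium and chloride. Slc4a2 encodes AE2, an exchanger that takes up chloride against bicarbonate and can work beside sodium-proton exchange. Slc12a4 and Slc12a7 encode KCC1 and KCC4, which export potassium with chloride. Lrrc8a encodes the obligatory subunit of the volume-regulated anion channel and Lrrc8c one of its partner subunits. Wnk1 encodes a chloride-sensing kinase that phosphorylates SPAK, the product of Stk39, and SPAK in turn activates NKCC1 and inhibits KCC cotransporters. The inner medulla is the part of the kidney with the highest osmolality, so its collecting duct cells meet large swings of tonicity.

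These 8 genes were followed in primary cultures of the rat inner medullary collecting duct, the last segment through which urine passes. They were chosen by gene symbol, and each was read from the probe set with exactly 1 symbol and the highest mean over all arrays. All 8 were found among the 14506 genes measured. Wnk1 had 2 such probe sets and every other member had 1.

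Total RNA of 30 samples was hybridised to 1 array each, in 10 groups of 3. In 3 groups the cells were cultured throughout at 300, 600 or 900 mosmol/kg, named steady 300, steady 600 and steady 900 here. Cells from 300 mosmol/kg were moved to 600 mosmol/kg for 3, 12, 24 or 48 h, cells from 600 were moved to 900 mosmol/kg for 12 or 24 h, and cells from 900 were returned to 300 mosmol/kg for 24 h. The treatment field of all 30 samples names 5 µM cyclosporin A, a calcineurin inhibitor, which no title mentions, and the comparisons assume that all cultures were treated alike. The solute that raised the osmolality and the strain and age of the rats are not given in the labels used here. Whether replicates came from separate cultures is not stated in the labels, and the p-values therefore reflect variation among arrays that may be only technical.

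Arrays were alike in overall signal, with medians of 5.63 to 5.76 on the log2 scale, and correlated at 0.991 to 0.998 within groups. The third replicate at 3 h after the step to 600 stood apart, with a median absolute difference over genes of 0.205 and 0.198 from its partners, which differed from each other by 0.122. Replicate 9 at 12 h after the step to 900 likewise lay 0.200 and 0.194 from its partners, which lay 0.0971 apart. Epithelial markers such as Epcam (mean 11.60) and Cdh1 (11.10) were bright in steady 300, whereas the principal cell gene Aqp2, the vasopressin-regulated water channel, had a mean of 5.61, below the median gene (6.68). These are cultures of mixed cells, so fewer cells of a type and less RNA per cell cannot be told apart.

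Promoter sequences of 2 members are shown because these genes moved in opposite directions when cultures kept at 900 mosmol/kg were set against those kept at 300. NFAT5, the tonicity-responsive transcription factor, binds elements with the core GGAAA, and TGGAAA is the longer form searched here. The stretches are the 250 bases before each gene's start in RefSeq on the GRCr8 assembly, written 5′ to 3′ on the gene's own strand, with GGAAA in capitals where it occurs. Stk39 lies on the minus strand and its stretch is chr3:73586980-73587229. The stretch of Slc12a4, also on the minus strand, is chr19:50770123-50770372.
Stk39: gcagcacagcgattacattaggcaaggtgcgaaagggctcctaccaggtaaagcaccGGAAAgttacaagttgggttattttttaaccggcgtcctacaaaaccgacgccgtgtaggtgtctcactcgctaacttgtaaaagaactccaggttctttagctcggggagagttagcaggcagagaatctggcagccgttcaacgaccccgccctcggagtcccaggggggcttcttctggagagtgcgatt
Slc12a4: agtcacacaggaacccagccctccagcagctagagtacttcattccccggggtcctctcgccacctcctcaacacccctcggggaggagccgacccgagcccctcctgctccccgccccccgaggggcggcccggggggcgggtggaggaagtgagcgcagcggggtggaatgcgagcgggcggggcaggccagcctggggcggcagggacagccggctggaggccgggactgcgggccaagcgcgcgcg
On either strand, GGAAA occurred in 4 of the 8 members' stretches (Stk39, Slc12a7, Slc4a2 and Lrrc8a), against 56.9% of 33469 RefSeq promoter stretches of the same length. Slc12a2, which was higher at 900 than at 300 mosmol/kg, lacked it, as did Lrrc8c, which was lower. Slc12a7 and Lrrc8a were also lower at 900 mosmol/kg and had it. TGGAAA, which contains GGAAA, occurred in 0 of 8, against 19.7% of those stretches. A match of letters is no evidence of binding, and its absence here says only that the letters are not in this window.

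Each of the 8 members passed a moderated F test (limma) across the 10 groups, as did 73.7% of all genes. The distance between the highest and lowest group mean was largest for Slc12a2 (2.19 on the log2 scale) and Stk39 (1.88). It was 1.15 for Wnk1, 1.08 for Lrrc8c, 0.86 for Slc12a4, 0.85 for Slc12a7, 0.68 for Lrrc8a and 0.66 for Slc4a2. The median was 0.97 over the members and 0.66 over all genes. All levels below are log2 expression values, and changes are differences of log2 group means ± standard error (SE) of the fit with an adjusted p over all genes. A gene rose or fell where that p was below 0.05.

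**Figure D1:**
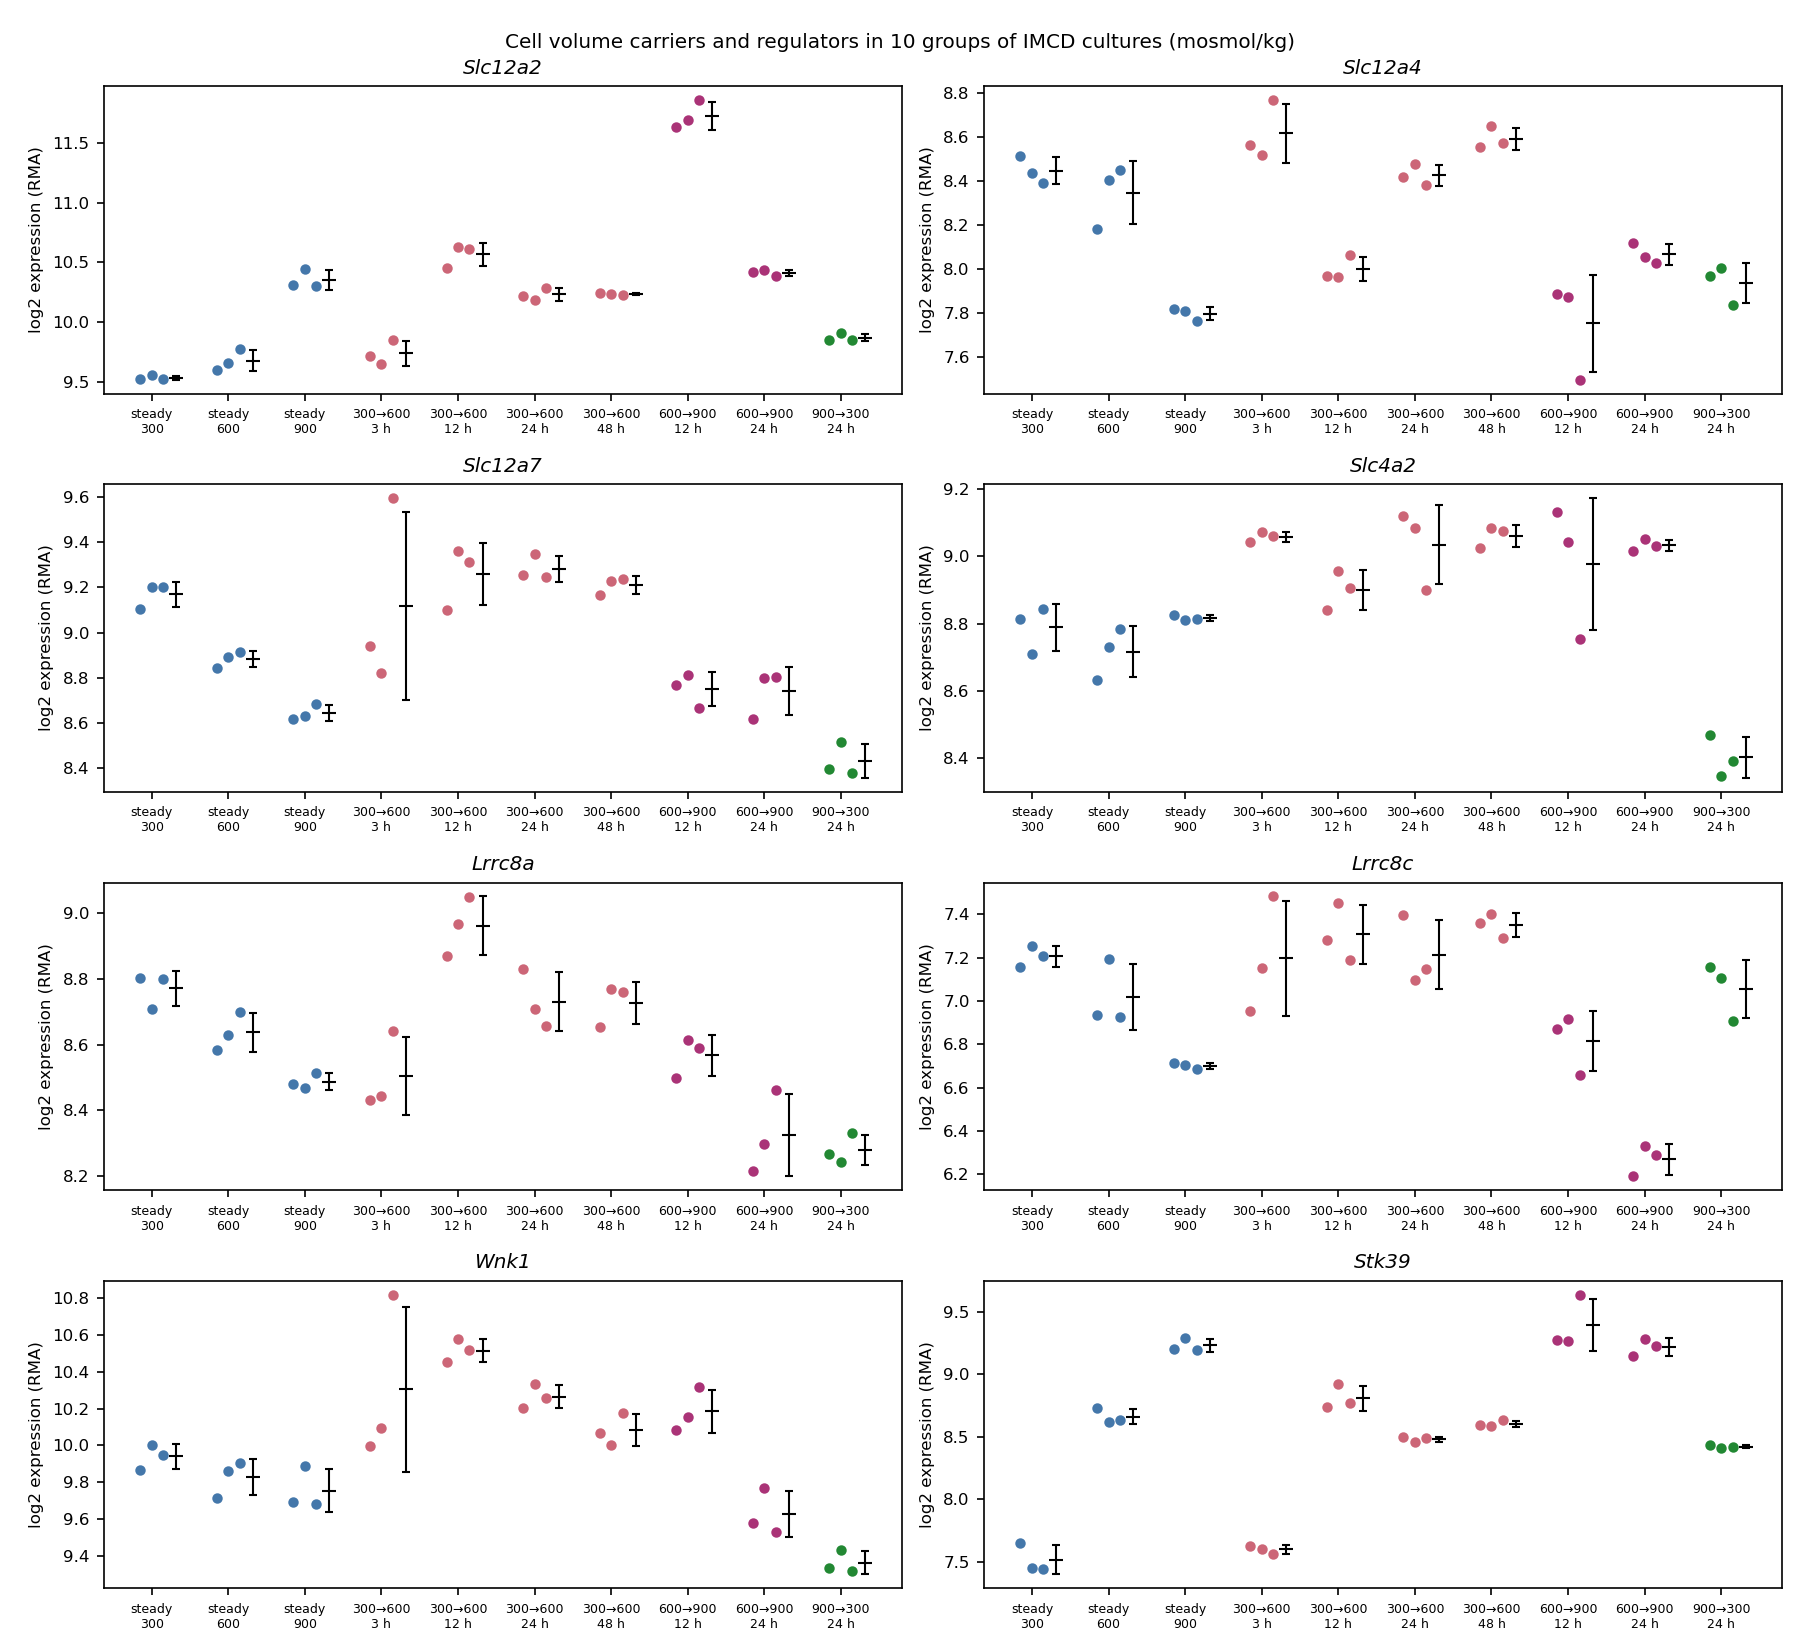
Log2 expression (RMA) of the 8 members, 1 panel per gene with its own vertical axis. Points are the 3 arrays of each of the 10 groups on the horizontal axis, with the group mean and SD beside them; the highest Slc12a2 points are the cultures 12 h after the step from 600 to 900 mosmol/kg (mean 11.73), and the lowest Stk39 points are those of steady 300 and of 3 h after the step to 600.

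Between steady cultures, Stk39 was the member that rose at 600 against 300 mosmol/kg. At 900 against 300 mosmol/kg, Stk39 and Slc12a2 were higher, and Slc12a4, Slc12a7, Lrrc8a and Lrrc8c were lower. Slc4a2 (0.03, adjusted p = 0.829 in limma) and Wnk1 (−0.18, adjusted p = 0.273) did not pass the threshold there. At 900 against 600 mosmol/kg, Slc12a7 (−0.24, adjusted p = 0.156) and Lrrc8a (−0.15, adjusted p = 0.178) also missed it. At 600 against 300 mosmol/kg, 1 member rose and 0 fell, where 13.7% of all genes rose and 13.4% fell. At 900 against 300 mosmol/kg, 2 rose and 4 fell, against 20.2% and 22.3% of all genes. At 900 against 600 mosmol/kg, 2 rose and 2 fell, against 11.3% and 12.9%. The median change of the members was −0.11, −0.23 and −0.11 in these comparisons, and that of all genes was 0.01, −0.00 and −0.01.

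After the step from 300 to 600 mosmol/kg, 3 members rose at each of the 4 times, though not the same 3. The count at 3 h rested on the third array, which stood apart. Without it Slc12a2 (0.15, adjusted p = 0.119 in limma) and Wnk1 (0.11, adjusted p = 0.353) missed the threshold, and Slc12a7 fell (−0.29, adjusted p = 0.00417). The counts that follow hold all arrays. At 3 h 3 rose and 1 fell (all genes, 12.1% and 29.5%), and at 12 h again 3 rose and 1 fell (11.9% and 22.6%). At 24 h 3 rose and 0 fell (9.40% and 13.0%), as at 48 h (9.57% and 12.0%). The median change was 0.13, 0.15, 0.18 and 0.14 for the members, against −0.04, −0.01, 0.01 and 0.01 for all genes. At 12 h after the step from 600 to 900 mosmol/kg 4 members rose and 1 fell (12.5% and 25.3%), and at 24 h 3 rose and 3 fell (11.2% and 14.7%). The median change was 0.10 and −0.17 for the members, against −0.03 and 0.01 for all genes. In the cells returned from 900 to 300 mosmol/kg, 1 member rose and 5 fell against steady 900 (19.3% and 18.5%), with a median of −0.30 against −0.02 for all genes. The comparisons with steady 300 share its 3 arrays, and those of the step to 900 share the steady 600 arrays.

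**Figure D2:**
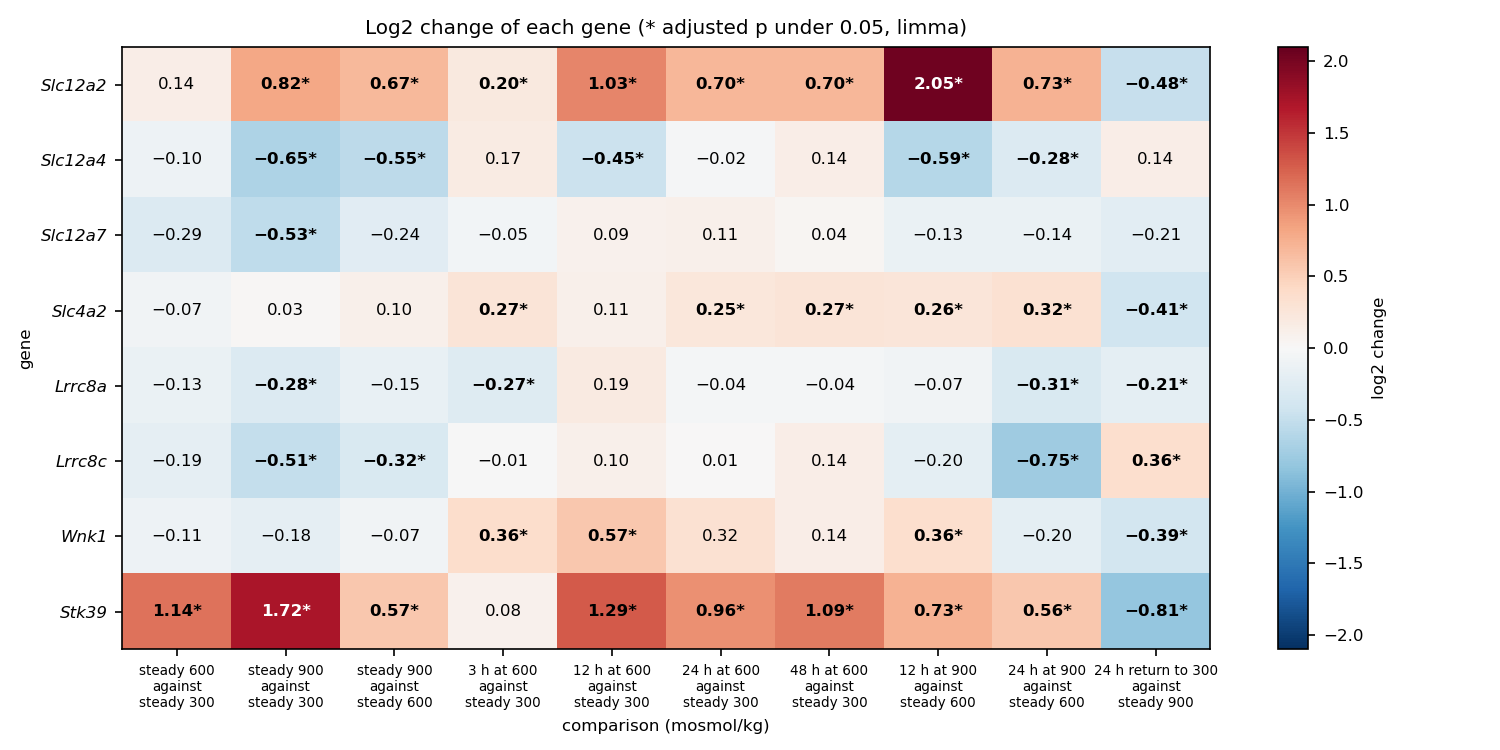
Log2 change of the 8 members in the 10 comparisons of steady cultures, upward steps and return, as a coloured grid with the value written in each cell and an asterisk where the adjusted p is below 0.05. The largest value is that of Slc12a2 12 h after the step to 900 mosmol/kg (2.05), and Stk39 carries an asterisk in every column but that of 3 h.

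Slc12a2, the gene of the loading cotransporter NKCC1, was higher at 12 h than at 24 h after each upward step; the step to 900 was sampled at these 2 times only. Its levels were 9.53, 9.56 and 9.53 in steady 300, 9.60, 9.66 and 9.78 in steady 600, and 10.31, 10.45 and 10.30 in steady 900. The 3 groups did not overlap. The change at 600 against 300 was 0.14 ± 0.07 (adjusted p = 0.174), with a 95% interval of −0.01 to 0.29. Steady 900 stood 1.76-fold above steady 300 (0.82 ± 0.07, adjusted p = 1.33e-10) and 1.60-fold above steady 600 (0.67 ± 0.07, adjusted p = 2.10e-08).

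After the step from 300 to 600 mosmol/kg, Slc12a2 stood at 9.71, 9.65 and 9.85 at 3 h and at 10.46, 10.63 and 10.61 at 12 h. It then stood at 10.22, 10.19 and 10.29 at 24 h and at 10.25, 10.23 and 10.23 at 48 h. Every array after the step lay above every array of steady 300, and those of 12 h lay above those of the other times. The change at 3 h was small (0.20 ± 0.07, adjusted p = 0.0280). It missed the threshold without the third array of 3 h (0.15, adjusted p = 0.119), without any 1 of the 3 steady 300 arrays (0.20 to 0.21, adjusted p = 0.0515 to 0.0700), with array weights (0.15, adjusted p = 0.0558), after median centring (0.18, adjusted p = 0.0574) and when the fit held only the compared arrays (adjusted p = 0.125). Other scalings made the 3 h change larger, with 0.37 after quantile normalization (adjusted p = 3.61e-05 in limma) and 0.41 after cyclic loess (adjusted p = 6.69e-06). At 12 h the gene was 2.04-fold higher (1.03 ± 0.07, adjusted p = 6.39e-12), at 24 h 1.62-fold (0.70 ± 0.07, adjusted p = 1.39e-08) and at 48 h 1.62-fold (0.70 ± 0.07, adjusted p = 1.43e-08). From 12 to 24 h it fell by 0.33 on the log2 scale (adjusted p = 8.00e-04). At 48 h it was above the cultures kept at 600 mosmol/kg throughout, by 0.56 ± 0.07 (adjusted p = 6.57e-07).

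The step from 600 to 900 mosmol/kg took Slc12a2 to 11.63, 11.69 and 11.86 at 12 h and to 10.42, 10.44 and 10.39 at 24 h. These 12 h arrays were the 3 highest of all 30. Against steady 600 the gene was 4.14-fold higher at 12 h (2.05 ± 0.07, adjusted p = 1.68e-18) and 1.66-fold at 24 h (0.73 ± 0.07, adjusted p = 5.16e-09). Without replicate 9 of the 12 h group the first change was 1.98. Between 12 and 24 h the level dropped 2.49-fold (−1.31 ± 0.07, adjusted p = 8.35e-14), and at 24 h it differed from steady 900 by 0.06 (95% interval −0.09 to 0.21, adjusted p = 0.660).

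The rise of Slc12a2 at 12 h was larger after the step to 900 than after the step to 600, by 1.02 ± 0.10 (adjusted p = 3.10e-08). At 24 h the corresponding difference was 0.04, with a 95% interval of −0.17 to 0.25. Of all genes, 13.4% differed between the steps at 12 h and 12.9% at 24 h, and 2 of the 8 members did so at each time.

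**Figure D3:**
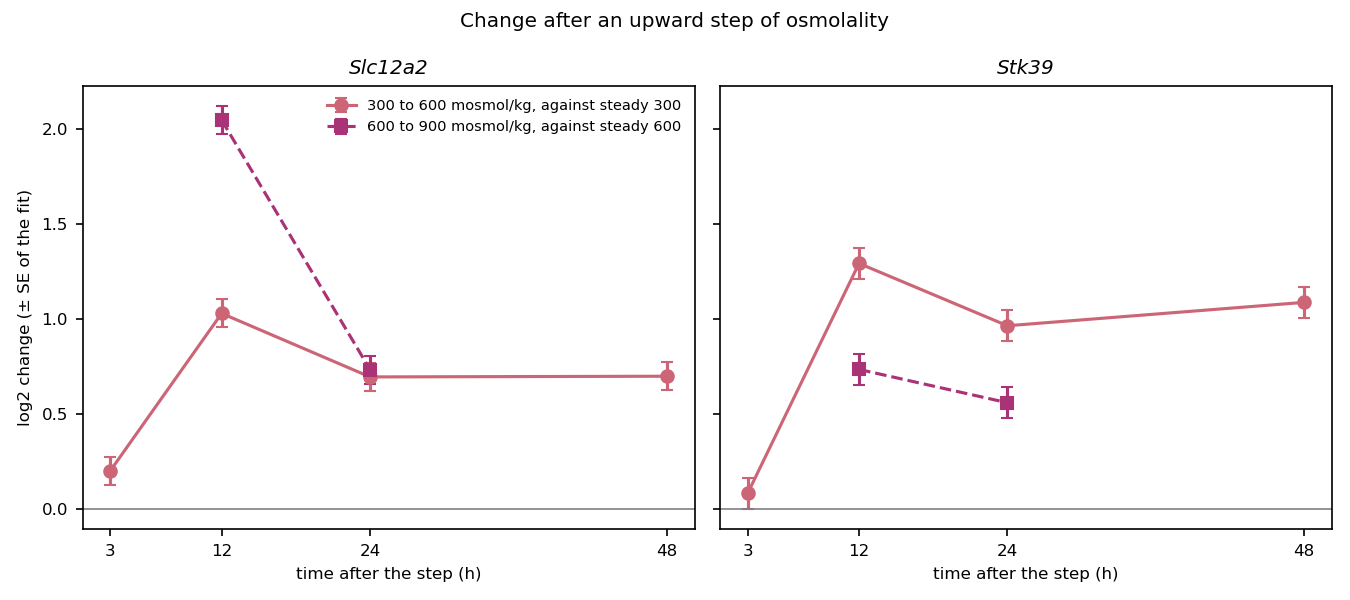
Log2 change (vertical axis, ± SE) of Slc12a2 and Stk39 against hours after an upward step, circles for 300 to 600 mosmol/kg against steady 300 and squares for 600 to 900 mosmol/kg against steady 600. At 12 h Slc12a2 shows the larger change after the step to 900 (2.05 against 1.03) and Stk39 the larger change after the step to 600 (1.29 against 0.73).

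Returned from 900 to 300 mosmol/kg, the cultures had Slc12a2 levels of 9.85, 9.91 and 9.86. This was 1.396-fold below steady 900 (−0.48 ± 0.07, adjusted p = 4.17e-06) and 1.26-fold above steady 300 (0.33 ± 0.07, adjusted p = 3.93e-04), with no overlap with either. In the order of the 10 group means, the group 12 h after the step to 900 differed from the next, that 12 h after the step to 600, by 1.16 (adjusted p = 1.17e-13). The 24 h group of the step to 600 differed from the returned cells by 0.36 (adjusted p = 1.61e-04). The other neighbours in the order did not differ past the threshold.

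Stk39, the gene of the kinase SPAK, was the member with the widest separation of the steady cultures. Its levels were 7.65, 7.45 and 7.44 in steady 300, 8.73, 8.62 and 8.63 in steady 600 and 9.20, 9.29 and 9.20 in steady 900, without overlap. It was 2.21-fold higher at 600 than at 300 mosmol/kg (1.14 ± 0.08, adjusted p = 3.03e-12) and 3.29-fold higher at 900 (1.72 ± 0.08, adjusted p = 9.36e-17). Between 600 and 900 mosmol/kg it differed by 0.57 ± 0.08 (adjusted p = 2.62e-06).

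At 3 h after the step to 600 mosmol/kg Stk39 stood at 7.63, 7.60 and 7.56, overlapping steady 300 (0.08 ± 0.08, 95% interval −0.09 to 0.25, adjusted p = 0.446). Over 16 alternatives the 3 h change ranged from 0.05 to 0.28 and passed the threshold in 2 (lowest adjusted p = 0.00311 in limma). At 12 h Stk39 stood at 8.73, 8.92 and 8.77, at 24 h at 8.50, 8.45 and 8.49 and at 48 h at 8.59, 8.58 and 8.63. All 9 of these arrays lay above those of 3 h and of steady 300. The changes against steady 300 were 1.29 (adjusted p = 6.45e-13), 0.96 (adjusted p = 2.07e-10) and 1.09 (adjusted p = 2.07e-11), or 2.45-, 1.95- and 2.13-fold. From 3 to 12 h the gene rose by 1.21 (adjusted p = 3.78e-12), and from 12 to 24 h it fell by 0.33 on the log2 scale (adjusted p = 0.00293). At 48 h the level differed from that of steady 600 by −0.06 (95% interval −0.23 to 0.11, adjusted p = 0.725).

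After the step to 900 mosmol/kg Stk39 stood at 9.28, 9.27 and 9.64 at 12 h and at 9.14, 9.28 and 9.23 at 24 h. It was 1.66-fold higher than in steady 600 at 12 h (0.73 ± 0.08, adjusted p = 2.40e-08) and 1.47-fold at 24 h (0.56 ± 0.08, adjusted p = 4.21e-06). Replicate 9 was the highest array of the 12 h group, and without it the change was 0.61. The rise was smaller than after the step to 600, by 0.56 ± 0.12 at 12 h (adjusted p = 0.00107) and by 0.41 ± 0.12 at 24 h (adjusted p = 0.0176). The 24 h difference missed the threshold without replicate 1 of that group, without steady 300 replicate 2 or 3 or without steady 600 replicate 1 (−0.37 in each case, adjusted p = 0.0511 to 0.0555).

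The returned cells had Stk39 levels of 8.43, 8.41 and 8.42, which was 1.75-fold below steady 900 (−0.81 ± 0.08, adjusted p = 4.02e-09) and 1.87-fold above steady 300 (0.91 ± 0.08, adjusted p = 1.87e-10). In the order of group means, 2 gaps between neighbours passed the threshold. One was the 0.41 between 24 h after the step to 900 and 12 h after the step to 600, and the other the 0.82 between the returned cells and 3 h after the step to 600.

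Wnk1, the gene of the kinase upstream of SPAK, did not pass the threshold between steady cultures. Its levels were 9.87, 10.004 and 9.95 in steady 300, 9.72, 9.86 and 9.91 in steady 600 and 9.70, 9.89 and 9.68 in steady 900, and the groups overlapped. The change was −0.11 ± 0.13 at 600 mosmol/kg (adjusted p = 0.608) and −0.18 ± 0.13 at 900 mosmol/kg (95% interval −0.45 to 0.08, adjusted p = 0.273).

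Of the 10 groups, Wnk1 had its highest mean at 12 h after the step to 600 mosmol/kg. It stood at 9.998, 10.10 and 10.82 at 3 h, at 10.45, 10.58 and 10.52 at 12 h, at 10.20, 10.33 and 10.26 at 24 h and at 10.07, 10.003 and 10.18 at 48 h. At 12 h it was 1.49-fold above steady 300 (0.57 ± 0.13, adjusted p = 6.72e-04) with no overlap. The change was 0.32 at 24 h (adjusted p = 0.0686) and 0.14 at 48 h (adjusted p = 0.511). The call at 3 h (0.36 ± 0.13, adjusted p = 0.0225) rested on the third array, which stood apart, and without it the change was 0.11 (adjusted p = 0.353). It was also lost with array weights (0.18, adjusted p = 0.110), with only the compared arrays (adjusted p = 0.181) and without steady 300 replicate 1 (0.33, adjusted p = 0.0775). Cyclic loess normalization gave a change of 0.57.

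At 12 h after the step to 900 mosmol/kg Wnk1 stood at 10.09, 10.15 and 10.32, and at 24 h at 9.58, 9.77 and 9.53. The 12 h arrays lay above steady 600 (0.36 ± 0.13, adjusted p = 0.0272), a call lost without replicate 9 (0.29, adjusted p = 0.113) or without steady 600 replicate 1 (0.30, adjusted p = 0.110). From 12 to 24 h Wnk1 fell by 0.56 on the log2 scale (adjusted p = 9.88e-04), with no overlap, and at 24 h it differed from steady 600 by −0.20 (adjusted p = 0.283). The change at 24 h was lower than that of the step to 600 by 0.52, which missed the threshold (adjusted p = 0.0528).

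The lowest Wnk1 levels were those of the returned cells, at 9.34, 9.44 and 9.32. They were 1.31-fold below steady 900 (−0.39 ± 0.13, adjusted p = 0.0152) and differed from steady 300 by −0.58 ± 0.13 (adjusted p = 4.26e-04). The first call was lost without replicate 9 of the returned cells (−0.37, adjusted p = 0.0501) or without steady 900 replicate 2 (−0.32, adjusted p = 0.0805). A second Wnk1 probe set was dim, with group means of 5.16 to 5.54. With the mean of both probe sets, the change was 0.14 at 3 h (adjusted p = 0.314), 0.37 at 12 h after the step to 600 (adjusted p = 0.0106), −0.36 from 12 to 24 h after the step to 900 (adjusted p = 0.0124), −0.20 from steady 900 to the returned cells (adjusted p = 0.163) and −0.27 against steady 300 (adjusted p = 0.0525). The kidney also makes a shorter Wnk1 transcript that lacks most of the kinase domain, and the annotation used here does not say which transcript these probe sets read.

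Slc4a2, the gene of the chloride-bicarbonate exchanger AE2, did not pass the threshold in any comparison of steady cultures. It stood at 8.81, 8.71 and 8.84 in steady 300, at 8.63, 8.73 and 8.78 in steady 600 and at 8.83, 8.81 and 8.81 in steady 900. The 900 and 300 mosmol/kg groups overlapped and differed by 0.03 ± 0.08 (95% interval −0.14 to 0.19, adjusted p = 0.829).

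After the step to 600 mosmol/kg Slc4a2 stood at 9.04, 9.07 and 9.06 at 3 h, at 8.84, 8.96 and 8.90 at 12 h, at 9.12, 9.08 and 8.90 at 24 h and at 9.02, 9.08 and 9.08 at 48 h. It was 1.21-fold above steady 300 at 3 h (0.27 ± 0.08, adjusted p = 0.00730), 1.19-fold at 24 h (0.25 ± 0.08, adjusted p = 0.0239) and 1.21-fold at 48 h (0.27 ± 0.08, adjusted p = 0.0123). At 48 h it was also above steady 600, by 0.35 ± 0.08 (adjusted p = 0.00146). The value of 12 h was 0.11 (95% interval −0.05 to 0.27, adjusted p = 0.305). The 3 h change kept its call without the third array of that time (0.27, adjusted p = 0.0133) and was 0.45 after quantile and 0.48 after cyclic loess normalization. The call of 24 h was lost without its replicate 1 (0.20, adjusted p = 0.125) or 2 (0.22, adjusted p = 0.0942), and with cyclic loess (0.22, adjusted p = 0.0708). Without steady 300 replicate 2 the calls of 24 h (0.21, adjusted p = 0.119) and 48 h (0.23, adjusted p = 0.0751) were both lost.

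The step to 900 mosmol/kg left Slc4a2 at 9.13, 9.04 and 8.76 at 12 h and at 9.02, 9.05 and 9.03 at 24 h. Against steady 600 it was 1.20-fold higher at 12 h (0.26 ± 0.08, adjusted p = 0.00956), although replicate 9 overlapped steady 600. That call was lost without replicate 1 (0.18, adjusted p = 0.0939), without steady 600 replicate 1 (0.22, adjusted p = 0.0576) and with only the compared arrays (adjusted p = 0.122). At 24 h the gene was 1.25-fold higher with no overlap (0.32 ± 0.08, adjusted p = 0.00296). The returned cells, at 8.47, 8.35 and 8.39, were the lowest 3 of the 30 arrays, 1.33-fold below steady 900 (−0.41 ± 0.08, adjusted p = 1.00e-04) and −0.39 ± 0.08 from steady 300 (adjusted p = 1.81e-04).

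Slc12a4, the gene of the exporter KCC1, was lower in steady 900 and, against the starting cultures, at 12 h after both upward steps. It stood at 8.51, 8.44 and 8.39 in steady 300, at 8.18, 8.41 and 8.45 in steady 600 and at 7.82, 7.81 and 7.76 in steady 900. Steady 900 lay below both other groups without overlap, 1.57-fold below steady 300 (−0.65 ± 0.09, adjusted p = 5.68e-07) and 1.46-fold below steady 600 (−0.55 ± 0.09, adjusted p = 2.11e-05). The change at 600 against 300 mosmol/kg was −0.10 (95% interval −0.29 to 0.09, adjusted p = 0.494).

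After the step to 600 mosmol/kg Slc12a4 stood at 8.56, 8.52 and 8.77 at 3 h, at 7.97, 7.96 and 8.07 at 12 h, at 8.42, 8.48 and 8.38 at 24 h and at 8.55, 8.65 and 8.57 at 48 h. The 12 h arrays were below those of every other time and of steady 300 (−0.45 ± 0.09, adjusted p = 2.43e-04, 1.36-fold lower). The gene fell by 0.62 on the log2 scale from 3 to 12 h (adjusted p = 2.73e-06) and rose by 0.43 from 12 to 24 h (adjusted p = 5.55e-04). At 24 and 48 h its change against steady 300 was −0.02 (adjusted p = 0.914) and 0.14 (adjusted p = 0.302).

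After the step to 900 mosmol/kg Slc12a4 stood at 7.89, 7.87 and 7.50 at 12 h and at 8.12, 8.05 and 8.03 at 24 h. It was 1.51-fold below steady 600 at 12 h (−0.59 ± 0.09, adjusted p = 4.03e-06) and 1.21-fold at 24 h (−0.28 ± 0.09, adjusted p = 0.0207). Replicate 9 was the lowest of the 12 h arrays, and without it the change was −0.47 (adjusted p = 3.69e-05). The rise from 12 to 24 h (0.31, adjusted p = 0.00751) was 0.19 without that array (adjusted p = 0.0814), 0.21 with array weights, and missed the threshold with only the compared arrays (adjusted p = 0.0894).

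The 24 h change of Slc12a4 against steady 600 was lost in 7 alternatives. These were cyclic loess (−0.24, adjusted p = 0.0516), median centring (−0.24, adjusted p = 0.0723), a block for the replicate number (−0.20, adjusted p = 0.0905), and the fits without 24 h replicate 2 (−0.27, adjusted p = 0.0581) or 9 (−0.26, adjusted p = 0.0704) or without steady 600 replicate 2 (−0.25, adjusted p = 0.0860) or 3 (−0.23, adjusted p = 0.114). The returned cells stood at 7.97, 8.005 and 7.83. They differed from steady 900 by 0.14 (95% interval −0.05 to 0.32, adjusted p = 0.260) and from steady 300 by −0.51 ± 0.09 (adjusted p = 2.59e-05).

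Slc12a7, the gene of the exporter KCC4, declined over the steady cultures, with 9.11, 9.20 and 9.20 in steady 300, 8.84, 8.89 and 8.91 in steady 600 and 8.62, 8.63 and 8.68 in steady 900. The groups did not overlap. Steady 900 was 1.44-fold below steady 300 (−0.53 ± 0.12, adjusted p = 4.45e-04). The intermediate differences of −0.29 ± 0.12 between 600 and 300 (adjusted p = 0.0725) and −0.24 ± 0.12 between 900 and 600 (adjusted p = 0.156) missed the threshold.

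The step to 600 mosmol/kg left Slc12a7 at 8.94, 8.82 and 9.60 at 3 h, 9.10, 9.36 and 9.31 at 12 h, 9.25, 9.35 and 9.24 at 24 h and 9.17, 9.23 and 9.24 at 48 h. At 3 h the third array lay above all steady 300 arrays and the other two below them. The change there was −0.05 (adjusted p = 0.759) with that array and −0.29 (adjusted p = 0.00417) without it, and 0.12 and 0.16 after quantile and cyclic loess normalization. At 12, 24 and 48 h the changes were 0.09, 0.11 and 0.04, none past the threshold. At 48 h the gene was above steady 600 by 0.33 ± 0.12 (adjusted p = 0.0437). That call was lost without any 1 of the 6 arrays (0.31 to 0.35, adjusted p = 0.0704 to 0.126) and with every probe set tested (adjusted p = 0.0740).

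After the step to 900 mosmol/kg Slc12a7 stood at 8.77, 8.81 and 8.67 at 12 h and at 8.62, 8.80 and 8.80 at 24 h, with changes of −0.13 (adjusted p = 0.410) and −0.14 (adjusted p = 0.427) against steady 600. The returned cells, at 8.40, 8.51 and 8.38, had the lowest mean of the 10 groups. They lay 1.67-fold below steady 300 (−0.74 ± 0.12, adjusted p = 5.27e-06) and differed from steady 900 by −0.21 (95% interval −0.45 to 0.03, adjusted p = 0.169).

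The anion channel genes were both lower in steady 900 than in steady 300. Lrrc8a, the obligatory subunit, stood at 8.80, 8.71 and 8.80 in steady 300, at 8.58, 8.63 and 8.70 in steady 600 and at 8.48, 8.47 and 8.51 in steady 900. At 900 mosmol/kg it was 1.22-fold below steady 300 (−0.28 ± 0.08, adjusted p = 0.00296), with no overlap. The differences of −0.15 between 900 and 600 (adjusted p = 0.178 in limma) and −0.13 between 600 and 300 (adjusted p = 0.224) missed the threshold. Lrrc8c, a partner subunit, stood at 7.16, 7.25 and 7.21 in steady 300, at 6.94, 7.19 and 6.92 in steady 600 and at 6.71, 6.70 and 6.69 in steady 900. It was 1.42-fold lower at 900 than at 300 mosmol/kg (−0.51 ± 0.11, adjusted p = 2.90e-04). Against steady 600 it was 1.25-fold lower (−0.32 ± 0.11, adjusted p = 0.0308), a call lost without steady 600 replicate 2 (−0.23, adjusted p = 0.203), without any 1 steady 900 array (adjusted p = 0.0656 to 0.0788), with every probe set tested (adjusted p = 0.0526) and after median centring (adjusted p = 0.0671).

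After the step to 600 mosmol/kg Lrrc8a stood at 8.43, 8.44 and 8.64 at 3 h, 8.87, 8.97 and 9.05 at 12 h, 8.83, 8.71 and 8.66 at 24 h and 8.65, 8.77 and 8.76 at 48 h. The 3 h arrays lay below and the 12 h arrays above those of steady 300. The fall at 3 h was 1.20-fold (−0.27 ± 0.08, adjusted p = 0.00606), and without the third array it was −0.33 (adjusted p = 8.86e-04). That fall depended on the scaling, with −0.09 after quantile normalization (adjusted p = 0.374) and −0.07 after cyclic loess (adjusted p = 0.504), and it missed the threshold with only the compared arrays (adjusted p = 0.0627). The value of 12 h was 0.19 (adjusted p = 0.0541). From 3 to 12 h Lrrc8a rose by 0.46 (adjusted p = 1.77e-05, 0.30 with cyclic loess), and from 12 to 24 h it fell by 0.23 on the log2 scale (adjusted p = 0.0235). The later fall was lost without 12 h replicate 2 or 3 or 24 h replicate 2 or 3 (adjusted p = 0.0526 to 0.123), after median centring (adjusted p = 0.0680) and with only the compared arrays (adjusted p = 0.0666).

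Lrrc8c stood at 6.95, 7.15 and 7.48 at 3 h, 7.28, 7.45 and 7.19 at 12 h, 7.40, 7.10 and 7.15 at 24 h and 7.36, 7.40 and 7.29 at 48 h after that step. No time passed the threshold against steady 300, with changes of −0.01, 0.10, 0.01 and 0.14. The highest 3 h array was again the third, and without it the change was −0.15 (adjusted p = 0.250). At 48 h the gene was above steady 600 by 0.33 ± 0.11 (adjusted p = 0.0264), a call lost without steady 600 replicate 1 or 3 or 48 h replicate 1 or 2 (0.28 to 0.33, adjusted p = 0.0697 to 0.115).

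The step to 900 mosmol/kg took Lrrc8c to the lowest levels of the series at 24 h, with 6.87, 6.92 and 6.66 at 12 h and 6.19, 6.33 and 6.29 at 24 h. The 24 h arrays lay below all 27 others. Against steady 600 the gene was 1.68-fold lower at 24 h (−0.75 ± 0.11, adjusted p = 3.50e-06), and at 12 h the change was −0.20 (adjusted p = 0.150). At 24 h it also differed from steady 900, by −0.43 ± 0.11 (adjusted p = 0.00509). The 24 h change differed from that of the step to 600 by −0.76 ± 0.15 (adjusted p = 8.53e-04), since the latter was 0.01.

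Lrrc8a stood at 8.50, 8.61 and 8.59 at 12 h and at 8.21, 8.30 and 8.46 at 24 h after the step to 900. Its change against steady 600 was −0.07 at 12 h (adjusted p = 0.524) and −0.31 ± 0.08 at 24 h (adjusted p = 0.00239, 1.24-fold lower). From 12 to 24 h Lrrc8c fell by 0.54 on the log2 scale (adjusted p = 2.19e-04) and Lrrc8a changed by −0.24 (adjusted p = 0.0145). The Lrrc8a fall was lost without 12 h replicate 2 (−0.22, adjusted p = 0.0575), without 24 h replicate 1 (−0.19, adjusted p = 0.103) and with only the compared arrays (adjusted p = 0.115).

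The channel subunits parted in the returned cells. Lrrc8c stood at 7.16, 7.11 and 6.91, 1.28-fold above steady 900 (0.36 ± 0.11, adjusted p = 0.00966) and −0.15 from steady 300 (95% interval −0.37 to 0.07, adjusted p = 0.298). Its rise was 0.31 without the returned replicate 1 (adjusted p = 0.0549). Lrrc8a stood at 8.27, 8.24 and 8.33, which differed from steady 900 by −0.21 ± 0.08 (adjusted p = 0.0324) and from steady 300 by −0.49 ± 0.08 (adjusted p = 3.98e-06). The smaller of these changes was lost without the returned replicate 1 or 2, without any 1 steady 900 array (adjusted p = 0.0546 to 0.1003) and after median centring (adjusted p = 0.0844).

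Over the steps between sampling times, 4 of 8 members changed from 3 to 12 h at 600 mosmol/kg (40.9% of all genes) and 4 from 12 to 24 h (27.0%). Between 24 and 48 h 0 of 8 passed in limma, and 0 had an unadjusted p under 0.05 (2.79% of all genes passed). At 900 mosmol/kg 5 members changed from 12 to 24 h (32.4%). Set against the cultures kept at the same osmolality, 4 members differed at 48 h from steady 600 (22.0%), and 2 at 24 h from steady 900 (18.3%). The latter were Lrrc8c and Slc12a4, whose difference (0.27 ± 0.09, adjusted p = 0.0365) was lost without any 1 of the 6 arrays (adjusted p = 0.0602 to 0.120) and with every probe set tested (adjusted p = 0.0529). Against steady 300, 7 of 8 members differed in the returned cells, 2 higher and 5 lower (42.6% of all genes), the exception being Lrrc8c.

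In the order of group means of the remaining members, few neighbouring groups differed past the threshold. Slc12a4 differed between steady 600 and 24 h after the step to 900 (0.28), Slc4a2 between steady 600 and the returned cells (0.31), and Lrrc8c between steady 900 and 24 h after the step to 900 (0.43). For Slc12a7, Lrrc8a and Wnk1 no pair of neighbours did.

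The genes with the most similar pattern over the 10 group means were taken from the 3951 or 3952 others whose group means spanned at least 1 on the log2 scale. Of the nearest 3 for each member, only the highest are named here. For Slc12a2 they were the chemokine gene Ccl20 (Pearson r = 0.959) and the keratin gene Krt23 (0.951), and for Stk39 the protease-like gene Prss35 (0.967). For Slc12a7 they were the channel gene Trpa1 (0.993) and the collagen receptor gene Ddr2 (0.978), for Slc12a4 the metalloproteinase gene Mmp11 (0.962), for Slc4a2 the transcription factor gene Scx (0.956), for Lrrc8a Ap1s2 (0.943), for Lrrc8c the chemokine receptor gene Cxcr4 (0.942) and for Wnk1 the histone demethylase gene Phf2 (0.943). These correlations run over 10 group means from the same 30 arrays and describe likeness only.

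Of 54 other genes of ion and volume control, 43 were measured. In steady 600 against steady 300, 14 were higher and 4 lower (all genes, 13.7% and 13.4%), and in steady 900 18 and 7 (20.2% and 22.3%), with medians of 0.12 and 0.15. In steady 900 against steady 600, 11 were higher and 4 lower (11.3% and 12.9%). The lower counts did not exceed the shares of all genes. The largest change was that of Slc4a11, a membrane carrier related to bicarbonate transporters, which rose 9.90-fold at 600 and 31.7-fold at 900 mosmol/kg against 300 (3.31 ± 0.09 and 4.99 ± 0.09). The potassium channel gene Kcnj16 rose by 2.22 ± 0.14 and 2.64 ± 0.14. The sodium bicarbonate cotransporter gene Slc4a4 changed by −0.89 ± 0.11 at 600 and by −0.90 ± 0.11 at 900 mosmol/kg. The sodium-proton exchanger gene Slc9a2 changed by −0.80 ± 0.10 at 900 mosmol/kg.

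**Figure D4:**
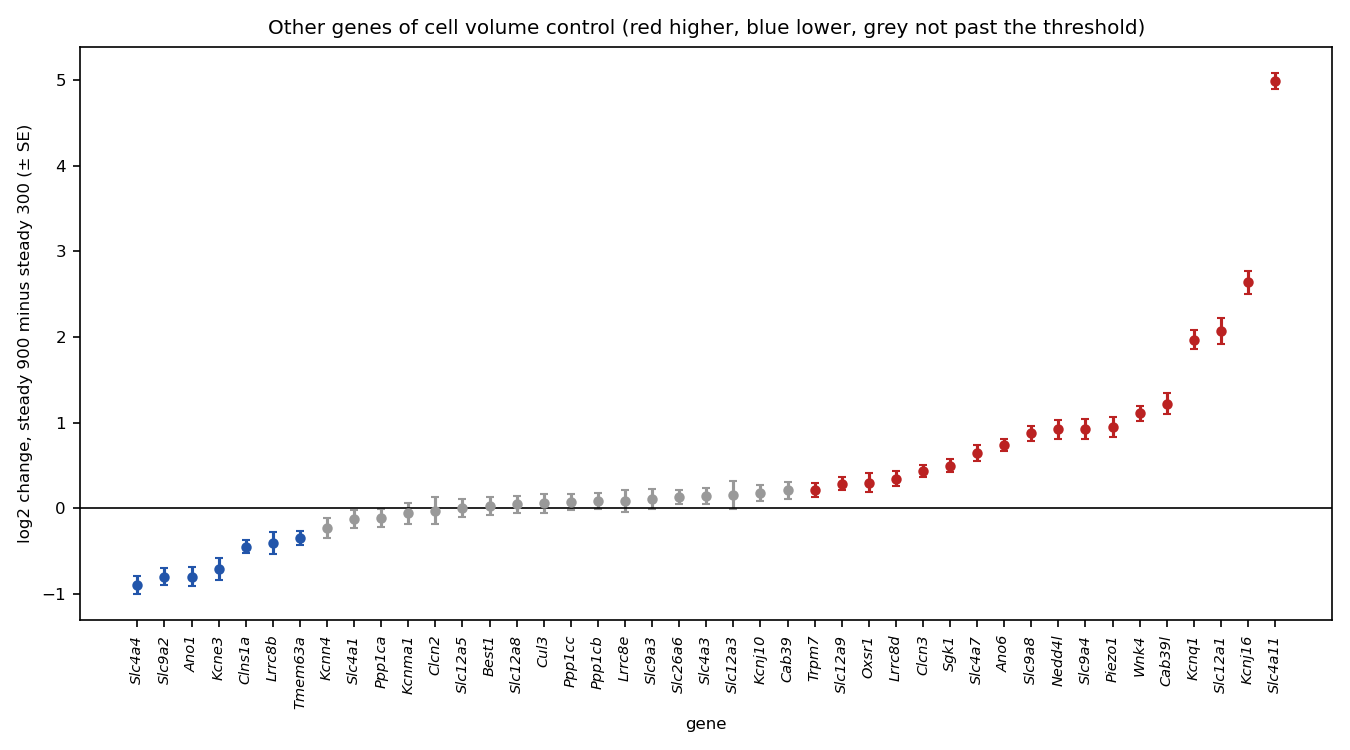
Log2 change (vertical axis, ± SE) of the 43 other measured genes of cell volume control, steady 900 minus steady 300, ordered by size, with red for higher, blue for lower and grey for those not past the threshold. Of the 43, 18 are red and 7 blue, and Slc4a11 lies highest at 4.99.

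On the list of kinases and partners of WNK and SPAK, several genes were higher at 900 mosmol/kg. Of 10 measured kinases and partners, 5 were higher and 0 lower at 900 against 300 mosmol/kg, where 20.2% of all genes were higher and 22.3% lower. Those that did not pass the threshold were Cab39, Cul3, Ppp1ca, Ppp1cb and Ppp1cc. Wnk4, a kinase of the same family as Wnk1, changed by 1.11 ± 0.09 and Cab39l, a scaffold protein that helps activate SPAK, by 1.22 ± 0.13. Oxsr1, the close relative of Stk39, changed by 0.30 ± 0.11 (adjusted p = 0.0221) where Stk39 changed by 1.72. Nedd4l, a ubiquitin ligase of ion transport, rose by 0.92 ± 0.11, and Sgk1, a kinase induced by salt and aldosterone, by 0.50 ± 0.08. In the returned cells 6 of these 10 were lower than in steady 900 and 0 higher (all genes, 18.5% and 19.3%), including Cab39l (−0.94 ± 0.13), Nedd4l (−0.73 ± 0.11) and Wnk4 (−0.61 ± 0.09).

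The other measured channel subunits did not share 1 pattern with Lrrc8a and Lrrc8c. Lrrc8b changed by −0.40 ± 0.13 (adjusted p = 0.0109) and Lrrc8d by 0.35 ± 0.09 (adjusted p = 0.00237) in steady 900 against steady 300, while Lrrc8e had 0.09 ± 0.12 (adjusted p = 0.630). In the returned cells Lrrc8b rose by 0.53 ± 0.13 and Lrrc8e by 0.36 ± 0.12 against steady 900. Clns1a, a regulator once linked to swelling-activated chloride currents, rose there by 0.58 ± 0.08.

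Among the 43, 9 were higher and 14 lower at 3 h at 600 mosmol/kg (all genes, 12.1% and 29.5%). At 12 h 6 were higher and 12 lower (all genes, 11.9% and 22.6%), at 24 h 7 and 5 (9.40% and 13.0%) and at 48 h 8 and 5 (9.57% and 12.0%). The lower counts at 3 and 12 h and the higher count at 12 h were thus near the shares of all genes. The sodium-proton exchanger gene Slc9a4, which was higher in steady 600 than in steady 300 (1.30 ± 0.12), had changes of −0.92 ± 0.12 at 3 h and −2.19 ± 0.12 at 12 h. The potassium channel subunit gene Kcne3 changed by −1.63 ± 0.13 at 3 h, and the mechanosensitive channel gene Piezo1 by 0.58 ± 0.12. At 24 h the calcium-activated chloride channel gene Ano1 changed by −1.13 ± 0.11.

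At 12 h after the step to 900 mosmol/kg 8 of the 43 were higher and 12 lower than in steady 600 (all genes, 12.5% and 25.3%), and at 24 h 10 and 6 (11.2% and 14.7%). The lower counts were near the shares of all genes. Slc4a11 rose again by 2.66 ± 0.09 at 12 h, and Slc9a4 changed by −1.25 ± 0.12. In the returned cells 3 were higher and 16 lower than in steady 900 (all genes, 19.3% and 18.5%). Slc12a1, which encodes NKCC2 of the thick ascending limb, changed by −1.48 ± 0.16 and Slc4a11 by −0.96 ± 0.09. The medians were 0.02, 0.06, 0.07 and 0.06 over the 4 times at 600, 0.01 and 0.10 over the step to 900 and −0.14 in the returned cells.

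Markers of other cell types moved with the osmolality beside the members. For the counts given here, 20.2% of all genes were higher and 22.3% lower at 900 against 300 mosmol/kg. The mean log2 level over 10 fibroblast and interstitial markers lay between 8.82 and 8.85 in steady 300, between 8.24 and 8.31 in steady 600 and between 6.71 and 6.76 in steady 900, with 7 of 10 lower at 900 than at 300 mosmol/kg. That of 8 leukocyte markers lay between 9.18 and 9.28, between 7.63 and 7.70 and between 6.97 and 7.09 in these groups, with 8 of 8 lower. Over 10 principal cell markers it rose from 5.38 to 5.57 in steady 300 through 8.08 to 8.46 up to 9.34 to 9.35, with 8 of 10 higher. From steady 300 to steady 900, loop of Henle and proximal tubule markers went from 5.21 to 5.38 up to 7.002 to 7.07 (4 of 6 higher, among them Slc12a1). Endothelial markers went from 7.61 to 7.65 up to 7.99 to 8.11, but of 5 measured 2 were higher and 1, Cdh5, was lower (7.51 to 6.30). Intercalated cell markers went from 5.27 to 5.49 down to 4.59 to 4.72, with 1 of 5 higher and 2 lower, and Slc26a4 held most of the shift (9.32 to 5.37). The endothelial and intercalated counts, of 5 genes each, do not stand clear of the shares of all genes. Epithelial markers went from 10.27 to 10.29 up to 10.89 to 10.96. Within that list the means of Krt8 (12.10 to 11.51), Krt18 (12.25 to 11.41) and Cdh1 (11.10 to 10.99) were lower, and those of Epcam, Krt19, Cdh16, Pax8 and Pax2 higher. The part of these shifts in the differences of Slc12a2, Stk39, Slc12a4, Slc12a7, Lrrc8a and Lrrc8c between steady cultures was not tested.

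At 12 h after the step to 600 mosmol/kg the principal cell markers were at 5.16 to 5.31, below their steady 300 range. The leukocyte markers were at 9.08 to 9.46 there, overlapping steady 300. The fibroblast markers (8.28 to 8.34) and the endothelial markers (6.90 to 7.01) lay below steady 300 without overlap. The part of these levels in the changes of Slc12a2 and Stk39 at that time was not tested. At 12 h after the step to 900 the principal cell, leukocyte and fibroblast lists stood at 7.87 to 7.97, 6.36 to 6.61 and 7.79 to 7.84. In the returned cells the fibroblast markers were at 6.70 to 6.79, overlapping steady 900, and the leukocyte markers at 6.07 to 6.17, below steady 900 without overlap, while the principal cell markers stood at 7.68 to 7.70.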

How the data were processed

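Samples were grouped by title into 10 groups of 3. Per the submitters' processing notes, the authors computed RMA (robust multi-array average) values, deposited as log2 expression. The version of RMA and the genome build are not given in the sources used for this text. RMA corrects background, scales arrays to each other and summarises probes, so small changes depend on that scaling, and dim genes are compressed. Of 29170 probe sets, 15310 had 1 symbol in the platform annotation, giving 14506 genes with the brightest probe set each. No array detection calls were used, and the number of arrays limits the precision.

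All comparisons used limma 3.58.1 (R 4.3.3): a linear model on the 30 arrays with a mean for each group, moderated by eBayes, and Benjamini-Hochberg adjustment over all genes at 0.05. The code was tested on simulated data. Intervals are 95% and not adjusted. Differences between steps were tested as contrasts of 4 group means. Alternatives were other scalings, both Wnk1 probe sets, a filter on dim genes, every probe set, array weights, eBayes with trend and robust estimation, fits to the compared arrays alone, a block for the replicate number, and leaving out each array. The members and gene lists were chosen with earlier results of these data known. The other volume genes named were picked from the 2 largest changes in each direction per comparison, and not all of these are given. Further members of the kinase and channel lists were named after their values were seen. Likeness was searched among named genes only, leaving out placeholder symbols (LOC, RGD and MGC). No consistent pairing by replicate number was seen. Of 46 same-number pairs, 5 had deviations correlated over 0.1, and in 0 of 17 comparisons did all. Pairs with different numbers were not set beside them, so pairing is not excluded.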

Additional observations from a re-analysis of the deposited data

Results flagged for a closer look

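Changes that differed between the step from 300 to 600 and the step from 600 to 900 mosmol/kg are listed here. For Slc12a2 at 12 h, the change after the step to 900 exceeded that after the step to 600 by 1.02 on the log2 scale. Stk39 differed in the other direction, by −0.56 at 12 h and by −0.41 at 24 h. Lrrc8c differed by −0.76 at 24 h. Each passed the test of the difference itself in limma. The groups compared start from different osmolalities. The reference cultures of the step to 900 differed past the threshold from those of the step to 600 in 1 of the 8 members, Stk39. Of all genes, 13.7% were higher and 13.4% lower between these references. A missed threshold does not make the references equal. Among the others, Slc12a2 differed by 0.14 (adjusted p = 0.174 in limma), Lrrc8c by −0.19 (adjusted p = 0.232) and Slc12a7 by −0.29 (adjusted p = 0.0725).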

How the results depend on the processing

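Of 152 member changes in 19 comparisons, 72 passed the threshold. In the alternatives run, 52 of these kept their call, 20 lost it in at least 1 and 0 changed sign. Of the 80 changes that missed the threshold, 26 passed it in at least 1 alternative. Among these were Wnk1 at 24 h at 600 (8 of 16 alternatives, lowest adjusted p = 0.001003 in limma), Lrrc8a at 12 h at 600 (7, lowest 0.00549) and Slc12a7 at steady 600 against steady 300 (5, lowest 0.00127). No scaling moved the median of all genes by over 0.1 (largest shift 0.07). Members moved further than that at 3 h at 600 mosmol/kg. After cyclic loess, Slc12a2 moved up from 0.20 to 0.41, Slc4a2 from 0.27 to 0.48 and Wnk1 from 0.36 to 0.57. Lrrc8a moved up from −0.27 to −0.07 and Slc12a7 from −0.05 to 0.16. With the replicate number as a block, the call of Slc12a4 at 24 h after the step to 900 was lost (−0.20) and no other call; the count of changed members was 1 at steady 600 and 6 at steady 900 against steady 300. Array number limits the precision of every count.

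The count of members at steady 600 against steady 300, 1 in the report, was 2 after quantile or cyclic loess normalization, with a trended and robust variance or with only the compared arrays, and 3 with array weights. Only the compared arrays gave 1 in place of 4 at 3 h and 3 in place of 5 from 12 to 24 h at 900. Testing every probe set gave 1 in place of 2 for 24 h at 900 against steady 900, and array weights gave 6 in place of 2 for the step difference at 24 h. For the other volume genes, array weights gave 23 (12 in the report) at 24 h, 22 (13) at 48 h and 25 (16) at 24 h at 900, and only the compared arrays gave 19 at 24 h. Leaving out 1 array gave 2 to 4 members at 3 h, 3 to 5 at 12 h at 900, 2 to 3 at 48 h against steady 600, 1 at 24 h at 900 against steady 900 and 1 to 3 for the step difference at 24 h.

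The values that changed sign were all below the threshold in the report, and the cause was not tested. After quantile and cyclic loess normalization, Slc12a7 at 3 h gave 0.12 and 0.16, Lrrc8c at 3 h 0.12 and 0.076, Lrrc8a at 12 h at 900 0.012 and 0.042, Slc12a7 from 12 to 24 h at 600 −0.024 and −0.043, and Slc4a2 from 12 to 24 h at 900 −0.038 and −0.016 (−0.029 with array weights). Cyclic loess gave −0.026 for Lrrc8c at 24 h and −0.028 for Slc12a7 from 3 to 12 h. Stk39 at 24 h at 900 against steady 900 gave 0.015 after quantile normalization and 0.0092 after median centring, which gave 0.0090 for Slc12a4 at 24 h. The mean of both probe sets gave 0.034 for Wnk1 between steady 900 and steady 600. With 1 array left out, the range was −0.012 to 0.055 for Slc4a2 at steady 900 against steady 300, −0.29 to 0.098 for Slc12a7 and −0.15 to 0.11 for Lrrc8c at 3 h, and −0.048 to 0.013 for Slc12a4 and −0.084 to 0.065 for Lrrc8c at 24 h. It was −0.0094 to 0.38 for Slc12a7 and −0.0098 to 0.25 for Lrrc8c from 3 to 12 h, and −0.054 to 0.076 for Slc12a7 from 12 to 24 h. From 24 to 48 h it was −0.020 to 0.032 for Slc12a2, −0.041 to 0.046 for Lrrc8a and −0.040 to 0.070 for Slc4a2. From 12 to 24 h at 900 it was −0.050 to 0.052 for Slc12a7 and −0.054 to 0.13 for Slc4a2, and for Stk39 at 24 h at 900 against steady 900 it was −0.047 to 0.024.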
